A study of Homo sapiens with 8 samples.

Results

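The 532 regions described here are stretches of chromosomes 1 to 22 where the HP1a peak lists of both HP1b-knockdown libraries had a peak and neither wild-type HP1a list had one. Peaks of the HP1b-knockdown replicates were merged, merged regions met by a peak of each replicate by at least 1 base were kept, and those touching any wild-type HP1a peak were removed. The members were thus chosen by HP1a peak positions alone. This left 532 of the 1167 HP1a regions found in both HP1b-knockdown libraries (45.6%), and the other 635 met a wild-type HP1a peak. All peaks of the 8 libraries together formed 581502 merged regions.

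The study mapped HP1a, the product of CBX5, and HP1b, the product of CBX1, by ChIP-seq in MCF10A, an established non-tumorigenic line of human mammary epithelial cells. There were 4 groups of 2 libraries, listed here by antibody target and cells: HP1a in cells with an HP1B knock-down, HP1b in cells with an HP1A knock-down, and each protein in WT cells with no treatment. The protein whose gene was knocked down was therefore never the protein mapped in the same library, and the lists hold no check of either knockdown. How the knockdowns were made, how complete they were and whether a replicate was a separate culture are not given in the sources that were used, so p values measure the spread between these libraries, which may be technical.

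HP1 proteins bind methylated lysine 9 of histone H3 through a chromodomain and bind each other and partner proteins through a chromoshadow domain. They are known for compact chromatin at pericentromeres, near telomeres and over clusters of zinc finger genes, and the paralogs can form dimers with each other. Each deposited peak carries a fold enrichment over the local background, a −log10 p and a −log10 q, all of them the authors' values. Where a list has no peak the protein may still be present below the level that was called, and read depth is unknown because the lists hold no read counts.

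The HP1a lists differ in length and in where they stop, and this bears on every region described here. On chromosomes 1 to 22 the HP1b-knockdown lists held 18658 and 18071 HP1a peaks over 9.41 and 9.18 Mb, against 127402 and 109345 peaks over 66.5 and 57.3 Mb in wild type. The weakest peak listed had a −log10 p of 3.43 in both HP1b-knockdown lists, against 2.75 and 2.80 in wild type. HP1b peaks numbered 149432 and 213115 over 111.2 and 156.1 Mb in the HP1a knockdown, against 225115 and 226766 peaks over 148.8 and 148.6 Mb in wild type. In single HP1b-knockdown libraries 71.0 and 70.0% of HP1a peaks met no wild-type peak, a larger share than the 45.6% among regions found in both.

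The 2 strongest of these regions lay at the start of genes, so promoter sequences are shown first. A promoter here is the window from 250 bases before to 50 bases after a RefSeq gene start (GRCh38.p14). Not every gene has such a window here, so the counts below can miss gene starts. Of the 532 regions, 477 lie on chromosomes whose promoters were analysed. Of these, 7 overlapped a promoter (1.47%), against 1 of the 538 other HP1a regions of the HP1b knockdown (0.186%), 0.661 and 0.727% of all HP1a peaks of the HP1b-knockdown libraries and 1.02% of the HP1a regions found in wild type only. Those 7 regions overlapped 8 promoters, since a single region of 275 bases lay across the divergent starts of ALOX12-AS1, an antisense RNA gene, and RNASEK-C17orf49, a readthrough gene of ribonuclease K and its neighbour, whose windows share 182 bases. Below are the promoters at the strongest regions that have one, each read 5′ to 3′ on the strand of its gene, with the bases inside the HP1a region in capitals.
ALOX12-AS1 (chr17:7012285-7012584, minus strand): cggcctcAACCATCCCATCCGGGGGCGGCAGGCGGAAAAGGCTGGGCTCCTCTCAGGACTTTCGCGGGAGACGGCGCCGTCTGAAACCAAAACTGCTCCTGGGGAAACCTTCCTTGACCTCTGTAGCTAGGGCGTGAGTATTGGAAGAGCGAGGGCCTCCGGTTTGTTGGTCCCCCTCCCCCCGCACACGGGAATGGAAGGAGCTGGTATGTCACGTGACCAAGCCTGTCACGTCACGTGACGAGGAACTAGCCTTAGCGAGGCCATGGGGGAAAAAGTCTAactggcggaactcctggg
CDKL3 (chr5:134370994-134371293, minus strand): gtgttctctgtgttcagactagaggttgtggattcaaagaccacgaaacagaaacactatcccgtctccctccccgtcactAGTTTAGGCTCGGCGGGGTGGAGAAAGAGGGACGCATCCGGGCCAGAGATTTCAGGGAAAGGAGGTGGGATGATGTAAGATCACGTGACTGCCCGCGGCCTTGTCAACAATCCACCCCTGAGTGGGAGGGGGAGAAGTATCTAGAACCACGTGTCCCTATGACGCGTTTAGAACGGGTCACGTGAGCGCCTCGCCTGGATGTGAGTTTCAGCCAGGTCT
ZNF626 (chr19:20661522-20661821, minus strand): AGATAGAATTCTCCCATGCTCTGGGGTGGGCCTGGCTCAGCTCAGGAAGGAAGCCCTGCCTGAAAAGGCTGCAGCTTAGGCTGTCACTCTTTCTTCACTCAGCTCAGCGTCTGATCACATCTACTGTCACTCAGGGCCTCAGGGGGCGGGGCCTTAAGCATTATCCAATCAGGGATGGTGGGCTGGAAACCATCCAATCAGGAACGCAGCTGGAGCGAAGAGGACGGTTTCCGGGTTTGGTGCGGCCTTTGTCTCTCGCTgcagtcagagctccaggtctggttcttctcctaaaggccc
LOC105370957 (chr15:88276921-88277220, plus strand): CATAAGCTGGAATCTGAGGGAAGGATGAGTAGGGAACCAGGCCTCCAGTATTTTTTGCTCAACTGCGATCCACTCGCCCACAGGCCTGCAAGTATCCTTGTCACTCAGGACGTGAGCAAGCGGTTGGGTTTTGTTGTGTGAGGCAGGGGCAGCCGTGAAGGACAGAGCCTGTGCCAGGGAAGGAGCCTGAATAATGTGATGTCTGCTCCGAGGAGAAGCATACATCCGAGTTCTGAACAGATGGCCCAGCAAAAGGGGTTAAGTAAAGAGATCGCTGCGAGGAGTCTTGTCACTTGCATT

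The first 2 of these sequences hold repeated copies of the palindrome CACGTG, the core of the E-box bound by basic helix-loop-helix factors, and all copies lay inside the HP1a region. Because it is a palindrome, both strands give the same matches. The ALOX12-AS1 window held CACGTG at bases 213 to 218 and 235 to 240, counted from its 5′ end, and both copies stood in the longer palindrome TCACGTGA. The CDKL3 window held CACGTG at bases 163 to 168, 229 to 234 and 260 to 265, and the first and last of these stood in TCACGTGA. The RNASEK-C17orf49 window held the 2 copies it shares with ALOX12-AS1, and none of the other 5 promoters held CACGTG. Of 33725 promoters on chromosomes 1 to 22 other than 8, 7.18% held CACGTG and 0.658% held it at least 2 times; TCACGTGA was in 0.943% and at least 2 times in 0.0830%. The motif was looked for after these sequences had been read, so the matches describe these promoters and no test was made of them.

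GC and CpG content of these promoters lay on both sides of the usual. The ALOX12-AS1 window had 61.0% GC and 20 CpG dinucleotides, the CDKL3 window 55.3% and 17, the ZNF626 window 56.7% and 8, and the LOC105370957 window 52.7% and 9. The median over all 33725 promoters was 58.7% GC and 14 CpG dinucleotides.

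The region at ALOX12-AS1 and RNASEK-C17orf49 (chr17:7012303-7012577) had the highest fold of all 532 in its weaker library, and that at CDKL3, a gene of the cyclin-dependent kinase-like family, had the second. The HP1a fold was 4.21 and 4.93 in the HP1b-knockdown libraries at the first and 4.16 and 4.80 at the second (chr5:134370962-134371212). Neither was met by an HP1b peak in any of the 4 HP1b libraries, and the nearest wild-type HP1a peaks were 739 and 11204 bases away.

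The other strong regions fell into those with no HP1b peak at all and those with HP1b in several libraries. Of the 12 regions with the highest HP1a fold in the weaker library, 5 had no HP1b peak in any library, against 51 of all 532 (9.59%), and 4 had an HP1b peak in all 4 libraries. Beside the 2 promoter regions, those without HP1b were chr19:10653931-10654199 (HP1a fold 4.16 and 3.89) and a region in SNTG2, which encodes a syntrophin (chr2:1279155-1279793, 3.87 and 3.77). The last was at PIP4P1, a phosphoinositide phosphatase gene (chr14:20460863-20461787, 3.74 and 5.43). It runs past the boundary of that gene at 20461434, and PIP4P1 has no window among the promoters used. The nearest wild-type HP1a peak was 42115, 69713 and 19930 bases away from these 3, farther than the median of 2791.5 bases over all 532. These folds and distances chose or bound the regions and are given as a description.

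Among the strong regions with HP1b, the one in FAM135B (chr8:138311764-138312309, HP1a fold 4.76 and 4.05) had HP1b peaks of fold 2.78 and 3.72 in the HP1a-knockdown libraries and none in wild type. Those at chr18:78852293-78853564, chr3:138644447-138645257, chr7:22646394-22647293 and chr20:932038-932500 had HP1b in all 4 libraries. At the chromosome 7 region the HP1b fold was 3.23 and 3.52 in the HP1a knockdown, against 2.95 and 3.65 in wild type. The remaining 2 of the 12, at chr19:28435904-28436228 and in TSNARE1 (chr8:142253839-142255239), had HP1b in the second replicate of each group only.

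**Figure D1:**
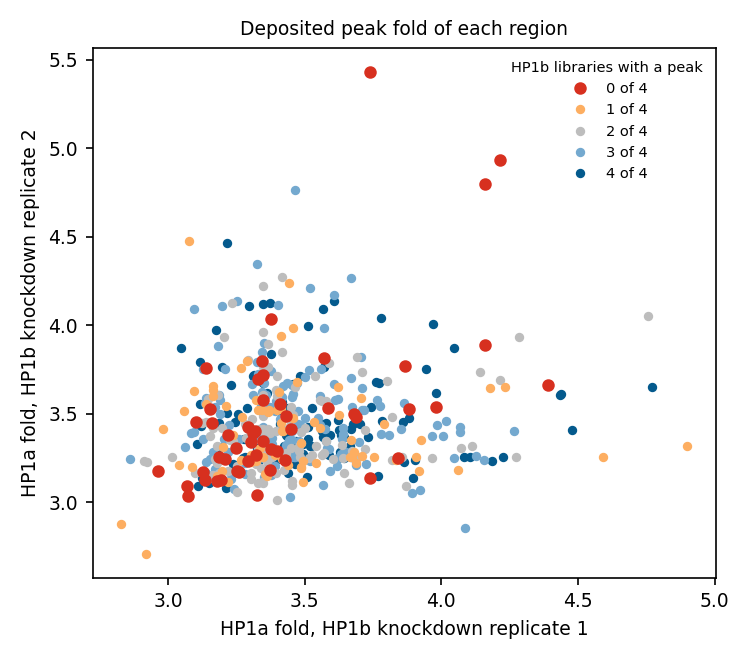
Deposited HP1a fold of each of the 532 regions in HP1b-knockdown replicate 1 (x axis) and replicate 2 (y axis), coloured by how many of the 4 HP1b libraries had a peak there. Regions with no HP1b peak lie among the others at the lower left and also take the high end, where the promoter regions of ALOX12-AS1 (4.21 and 4.93) and CDKL3 (4.16 and 4.80) sit.

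As a set the regions were narrower than the other HP1a regions of the HP1b knockdown and of similar fold. Their width had a median of 827 bases (202 to 3139), against 1044 bases in the other HP1a regions of the HP1b knockdown, and the fold in the weaker library had a median of 3.29 (2.71 to 4.21), against 3.27. The replicate peaks that made a region shared a median of 231.5 bases, and the least was 1 base. The widest were in XYLT1, a proteoglycan xylosyltransferase gene (3139 bases, chr16:17249413-17252551), in SHANK2, a postsynaptic scaffold gene (3037 bases, chr11:70805981-70809017), at chr8:141974221-141977091, at chr15:87706362-87709090, at chr8:143092190-143094694 and in EPHA8, an ephrin receptor gene (2470 bases, chr1:22578578-22581047). All 6 had an HP1b peak in both HP1a-knockdown libraries, whereas both wild-type libraries had one at only 2 of them, the region in XYLT1 and that at chr8:141974221-141977091.

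The border of the set was fine. The region nearest to a wild-type HP1a peak lay 1 base from it, in DENND1A (chr9:123585022-123586364), followed by chr8:142444737-142445266 at 2 bases, chr2:236302771-236303317 at 13 bases, a region in ADAMTS2 (chr5:179184669-179185460) at 19 bases and chr19:2929533-2930147 at 29 bases. Just outside, the regions that touched a wild-type peak least did so over 9 bases (chr4:107515552-107516599), 13 bases (in COL22A1, chr8:138709944-138711031), 17 bases (in ASIC2, chr17:33863430-33864680), 22 bases (chr20:29348561-29349087) and 24 bases (chr22:47713823-47714688). Requiring that no wild-type HP1a peak lie within 1 kb left 394 of the 532.

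The number also depended on the strength asked of the lists. With a −log10 q of at least 2 in every list, 5 HP1a regions were left in both HP1b-knockdown libraries and 3 of them met no wild-type peak. With equally long lists, the strongest peaks of each HP1a library by −log10 p, which shortens the wild-type lists, 926 of 1150 regions met none.

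HP1b was not used to choose the regions, and its peaks met more of them when HP1a was knocked down. An HP1b peak met 348 and 414 of the 532 regions in the HP1a-knockdown libraries (65.4 and 77.8%), against 252 and 265 in wild type (47.4 and 49.8%). Both HP1a-knockdown values were above both wild-type values, with means of 71.6 ± 8.77% and 48.6 ± 1.73% (SD, n = 2 each) and a difference of 23.03 percentage points. The exact two-sided permutation test gave p = 0.333, the smallest that 2 against 2 libraries allow.

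The share of region bases under HP1b peaks followed the same order. It was 45.5 and 59.0% in the HP1a-knockdown libraries, against 27.7 and 26.6% in wild type, or 52.2 ± 9.57% against 27.1 ± 0.719% (SD, n = 2 each). The difference was 25.1 percentage points (exact permutation p = 0.333, two-sided, n = 2 each). HP1b peaks covered 3.87 and 5.43% of chromosomes 1 to 22 in the HP1a-knockdown libraries, against 5.18 and 5.17% in wild type. The order at the regions was therefore not that of the totals. Where a peak was listed its fold was similar: the median HP1b fold at the regions met was 2.93 and 3.06 in the HP1a knockdown, against 2.99 and 3.16 in wild type. Over all peaks of these lists the median fold was 2.79 and 2.79 in the HP1a knockdown, against 2.92 and 3.03 in wild type.

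With only HP1b peaks of −log10 q of at least 2, the bases covered were 12.6% in the HP1a knockdown and 1.32% in wild type, a difference of 11.3 points. More of the HP1a-knockdown peaks pass that strength, 9.83 and 22.2% of the lists against 3.65 and 7.66% in wild type, and the part this plays in the result was not tested. With the same number of peaks in each HP1b library the difference in bases was 28.1 points.

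**Figure D2:**
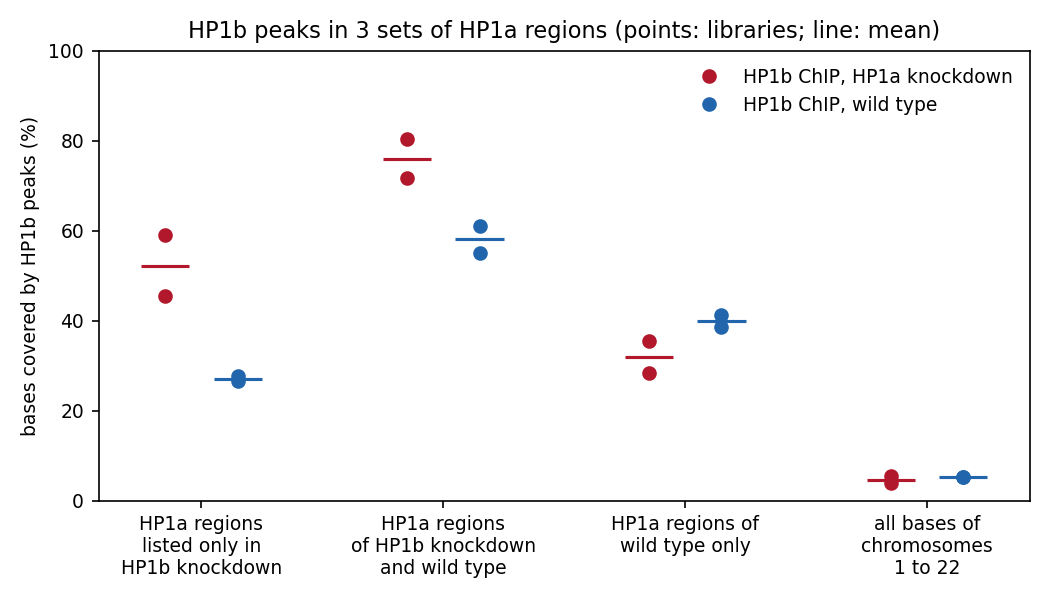
Percent of bases covered by HP1b peaks (y axis) in HP1a regions listed only in HP1b knockdown, HP1a regions of HP1b knockdown and wild type, HP1a regions of wild type only, and all bases of chromosomes 1 to 22; points are libraries (red, HP1a knockdown; blue, wild type) and lines are means of 2. In the first set the HP1a-knockdown libraries (45.5 and 59.0%) lie above wild type (27.7 and 26.6%), and in the wild-type-only set they lie below it (28.4 and 35.6% against 38.7 and 41.2%).

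The other HP1a regions of the HP1b knockdown differed in the same direction at a higher level. HP1b peaks covered 71.7 and 80.3% of their bases in the HP1a-knockdown libraries, against 55.1 and 61.0% in wild type, a difference of 18.0 points. In all 4 HP1b libraries the regions listed only in HP1b knockdown held less HP1b than these others, by −26.2 and −21.3 points in the HP1a knockdown and −27.4 and −34.4 points in wild type (mean −27.3 ± 5.40 points, SD, n = 4). The exact two-sided sign-flip permutation test over the 4 libraries gave p = 0.125, its smallest value. The gap between both sets was 7.14 points smaller in the HP1a knockdown than in wild type (exact permutation p = 0.333, n = 2 each).

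HP1a regions found in wild type only, 22813 of them, went the other way. Their bases were covered at 28.4 and 35.6% in the HP1a-knockdown libraries, against 38.7 and 41.2% in wild type, a difference of −7.94 points. The regions listed only in HP1b knockdown thus stood 17.1 and 23.4 points above these in the HP1a-knockdown libraries, against −11.05 and −14.5 points in wild type. The difference between those differences was 33.0 points (exact permutation p = 0.333, the smallest possible, n = 2 each).

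HP1b at the regions ranged from none to all 4 libraries. There were 51 regions with no HP1b peak, 80 with a peak in 1 library, 123 in 2, 159 in 3 and 119 in all 4, whereas 410 of the 635 other HP1a regions of the HP1b knockdown had one in all 4. Regions with HP1b in more libraries were wider, with median widths of 672, 756.5, 778, 861 and 968 bases in order of that number, while the median HP1a fold in the weaker library stayed between 3.26 and 3.32. A wider region has more bases that a peak can touch.

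An HP1b peak in both HP1a-knockdown libraries and neither wild-type library was found at 71 of the 532 regions (13.3%). The share was 2.44% over all 23974 HP1a regions found in both libraries of either HP1a group, and 3.62% of the other HP1a regions of the HP1b knockdown. The opposite, a peak in both wild-type libraries and neither HP1a-knockdown library, was found at 8 regions (1.504%), against 7.8% over all 23974. Among regions with HP1b in all 4 libraries, the one in ZNF69, a zinc finger gene (chr19:11901489-11902696), had HP1b folds of 3.20 and 3.24 in the HP1a knockdown, against 3.18 and 3.80 in wild type. The region in FBXL13, an F-box protein gene (chr7:103049594-103050377), had 3.12 and 3.75 in the HP1a knockdown, against 3.99 and 4.46 in wild type, and there HP1b was listed as stronger in wild type.

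The extra HP1b in the HP1a knockdown was not confined to the regions themselves. Within 1 kb of the region centres HP1b peaks covered 36.2 and 46.9% of bases in the HP1a-knockdown libraries, against 21.5 and 21.6% in wild type. At 40 to 50 kb from the centres they still covered 17.9 and 23.7% in the HP1a knockdown, against 11.4 and 11.9% in wild type, all above the library's share of chromosomes 1 to 22. The HP1a-knockdown libraries thus lay above wild type at the centres and across the surrounding chromatin. The order was the same, at a higher level, around the other HP1a regions of the HP1b knockdown. At 40 to 50 kb from their centres HP1b peaks covered 22.6 and 26.6% in the HP1a knockdown, against 17.6 and 17.9% in wild type.

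HP1a was also listed around the regions in both kinds of cells. In the HP1b knockdown its peaks covered 1.94 and 2.21% of bases at 40 to 50 kb from the centres, with 0.328 and 0.320% of chromosomes 1 to 22 covered in those libraries. In wild type, where by the rule it is missing at the regions, they covered 4.16 and 3.93% at that distance, with 2.32 and 1.99% of chromosomes 1 to 22 covered. Around the regions both HP1 proteins were thus listed more often than over the chromosomes as a whole. The HP1a lists chose the regions, so for HP1a this is a description. Around the other HP1a regions of the HP1b knockdown, HP1a peaks covered more at 40 to 50 kb. The values there were 3.47 and 3.38% in the HP1b knockdown and 8.50 and 7.54% in wild type.

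**Figure D3:**
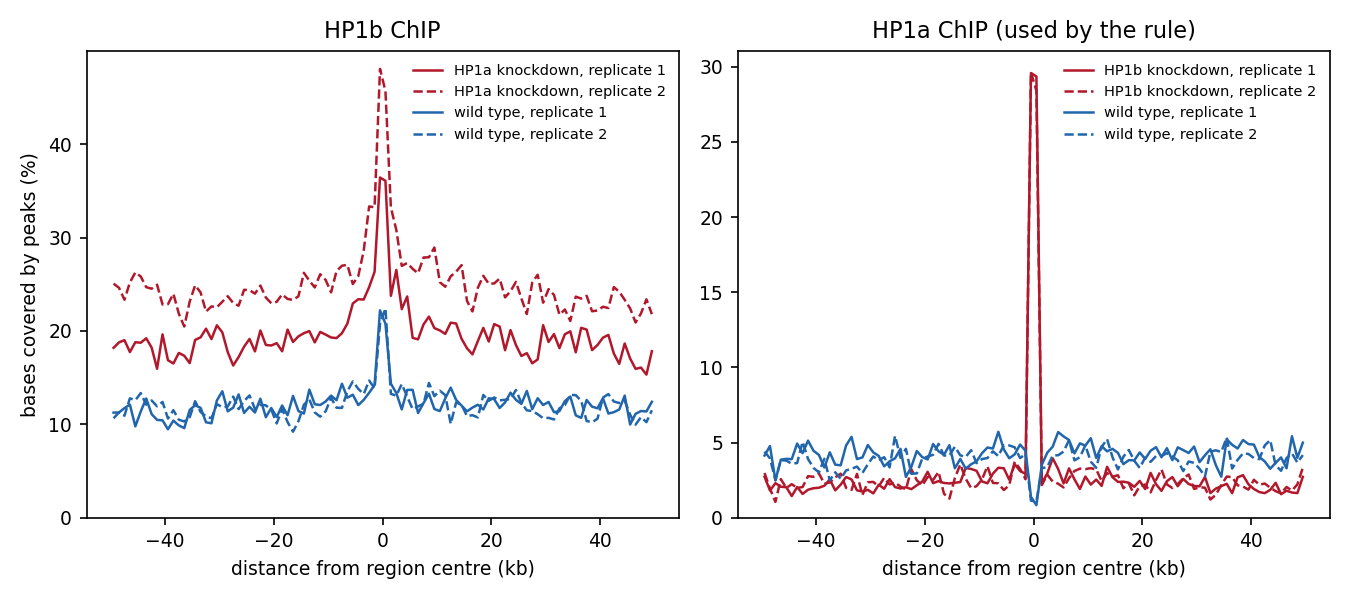
Percent of bases covered by peaks (y axis) by distance in kb from the centres of the 532 regions (x axis, bins of 1 kb), for HP1b (left) and HP1a (right); red lines are the knockdown libraries, blue lines wild type, solid replicate 1 and dashed replicate 2. HP1b in the HP1a knockdown lies above wild type at the centre and out to 50 kb; the central HP1a peak and gap on the right were fixed by the rule that chose the regions.

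HP1b around each region was tested with limma on the percent of bases covered in the region with 5 kb on each side, scaled to equal total coverage of the libraries. The windows were those of HP1a regions found in both libraries of either HP1a group, with HP1b in at least 2 of 4 libraries. Of these 22093 windows, 20955 belonged to regions of wild type only, which weigh most in every share of all windows. In either direction 0% of the 22093 passed a Benjamini-Hochberg adjusted p of 0.05. None of the 510 tested windows of the regions listed only in HP1b knockdown did. The lowest adjusted p in limma was 0.204. At an unadjusted limma p under 0.05, 189 of the 510 windows were higher in the HP1a knockdown (37.1%) and 6 were lower (1.18%), against 5.68 and 10.8% of all windows. For the other HP1a regions of the HP1b knockdown, 26.3% were higher and 1.43% lower at that level. For regions of wild type only, 4.30% were higher and 11.3% lower.

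The median difference over the 510 windows was 14.2 points in favour of the HP1a knockdown, against −1.43 points over all windows and 12.7 points over the other HP1a regions of the HP1b knockdown. The difference was above 0 at 424 of the 510 (83.1%), against 43.8% of all windows. Both HP1a-knockdown libraries lay above both wild-type libraries at 301 of the 532 regions (56.6%) and below them at 27 (5.08%). Over all 23974 windows these shares were 16.9 and 27.0%.

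**Figure D4:**
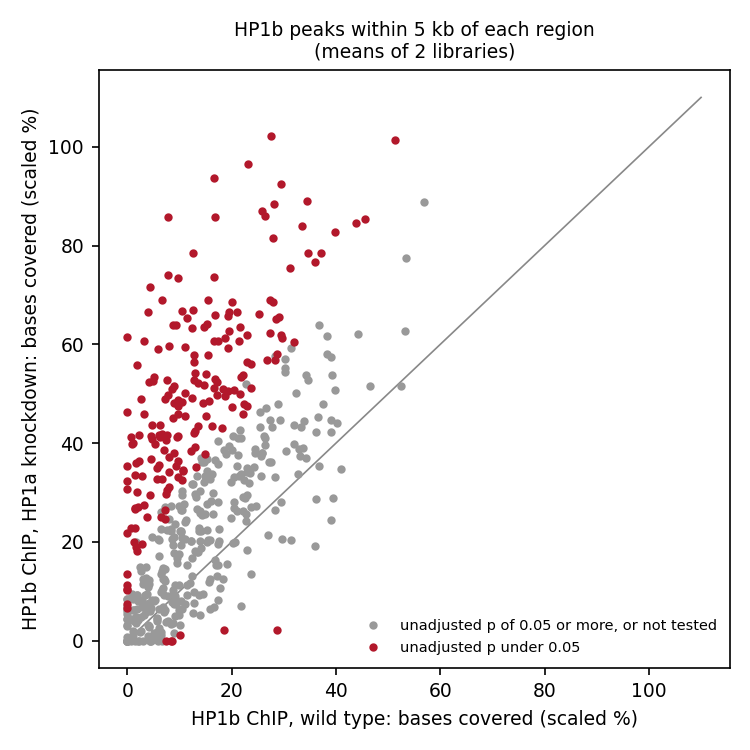
HP1b coverage within 5 kb of each of the 532 regions, in percent of bases scaled to equal total coverage (scaled values can pass 100), as means of the 2 HP1a-knockdown libraries (y axis) and of the 2 wild-type libraries (x axis); the line marks equal values and red points have an unadjusted limma p under 0.05. Most points lie above the line, 424 of the 510 tested, and none passed after adjustment.

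The 3 windows with the highest moderated t, though not the largest differences in percent, were in the distal parts of chromosomes 12 and 1. The window at a region in RIMBP2, which encodes a presynaptic active-zone protein (chr12:130516916-130518040), had scaled HP1b coverage of 62.0 and 61.1% in the HP1a-knockdown libraries and was listed at 0 in both wild-type libraries. The window at chr1:5286511-5287215 had 73.9 and 69.5% in the HP1a knockdown, against 3.08 and 5.78% in wild type. That at chr1:5463127-5465282 had 93.5 and 77.9% in the HP1a knockdown, against 5.14 and 10.3% in wild type. At these 3 windows the groups were far apart, with differences of 61.5, 67.3 and 77.9 points (limma SE 9.32, 10.4 and 12.3), yet each had an adjusted p of 0.204 in limma.

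The 3 lowest moderated t values belonged to windows on chromosomes 18, 1 and 2. The window at a region in CELF4, an RNA-binding protein gene (chr18:37427874-37428591), had 4.51 and 0% in the HP1a knockdown, against 38.4 and 19.1% in wild type, a difference of −26.5 points (limma SE 8.56, adjusted p = 0.264). The windows at chr1:110135829-110136208 and chr2:136331494-136332615 were listed at 0 in both HP1a-knockdown libraries, against 9.16 and 8.15% and 8.98 and 7.80% in wild type. Their limma adjusted p values were 0.269 and 0.270. Both windows passed the filter through the wild-type libraries alone, so their place in this ranking is a description too.

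The call depended on the width of the window. With 1 kb on each side in place of 5 kb, limma called 0 of 448 windows of these regions in either direction. With 25 kb on each side, most of each window lay outside its region. There the limma fit with Benjamini-Hochberg adjustment called the windows of 206 of 531 regions higher in the HP1a knockdown (38.8%) and 9 lower (1.69%). Over all 23920 windows 4.91% were called higher and 8.7% lower, over the other HP1a regions of the HP1b knockdown 26.7% higher, and over regions of wild type only 3.51% higher and 9.08% lower. In that fit the difference was 31.1 points at RIMBP2 (adjusted p = 7.81e-06), 58.4 points at chr1:5286511-5287215 (adjusted p = 6.48e-07), 47.5 points at chr1:5463127-5465282 (adjusted p = 2.02e-07) and −12.4 points at CELF4 (adjusted p = 0.00596, limma). At chr1:110135829-110136208 and chr2:136331494-136332615 it was −1.16 and −5.07 points, with limma adjusted p values of 0.898 and 0.369. Windows of this width overlap where regions are close, so neighbouring calls share bases.

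With the replicate numbers as a block, limma called 88 of the 510 windows higher and none lower, against 1.1 and 0.579% of all windows. The labels do not say that equal numbers pair libraries.

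The regions were gathered near chromosome ends. Of the 532, 153 lay within 5 Mb of the end of a chromosome (28.8%), against 22.05% of the other HP1a regions of the HP1b knockdown, 15.9 and 15.4% of all HP1a peaks in the HP1b-knockdown libraries, 6.14% of HP1a regions of wild type only and 7.65% of bases. HP1b at these distal regions covered 46.2 and 61.5% of bases in the HP1a knockdown, against 21.98 and 25.6% in wild type. Elsewhere it covered 45.2 and 58.0% in the HP1a knockdown, against 30.0 and 27.0% in wild type. The distal regions thus had less HP1b than regions elsewhere in wild type, mainly in replicate 1, and slightly more in the HP1a knockdown.

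In the 25 kb fit, limma called the windows of 92 of 152 distal regions higher in the HP1a knockdown (60.5%), against 114 of 379 elsewhere (30.1%). The same split was 47.8 and 20.8% for the other HP1a regions of the HP1b knockdown and 16.0 and 2.70% for regions of wild type only, so the higher share near chromosome ends was seen in all 3 sets.

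Chromosomes 8 and 19 held the most regions. Chromosome 8 held 55 (10.3%, with 5.05% of bases), chromosome 19 held 54 (10.2%, with 2.04% of bases), chromosome 7 held 43, chromosome 11 held 37 and chromosome 1 held 36. Chromosomes 8 and 19 also held 15.3 and 10.2% of the other HP1a regions of the HP1b knockdown. Of all HP1a peaks in the HP1b-knockdown libraries, 6.77 and 7.14% lay on chromosome 8 and 6.84 and 6.31% on chromosome 19. Chromosome 1 held 6.77% of the regions and 19.2% of the other HP1a regions of the HP1b knockdown, whereas chromosome 11 held 6.95 and 2.68% and chromosome 18 held 3.20 and 0.630%. Chromosome 6, with 5.94% of bases, held 10 regions (1.88%). In the 25 kb fit, limma called the windows of 26 of 37 regions on chromosome 11 higher in the HP1a knockdown (70.3%). This compares with 9.29% of all windows on that chromosome. It called 28 of 55 on chromosome 8 (50.9%, against 9.24% of all windows there), 22 of 54 on chromosome 19 (40.7%, against 13.7%) and 0 of 10 on chromosome 6 (against 0.552%). The other HP1a regions of the HP1b knockdown were called higher at 7 of 17 windows on chromosome 11, 57 of 96 on chromosome 8, 14 of 63 on chromosome 19 and 0 of 11 on chromosome 6.

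**Figure D5:**
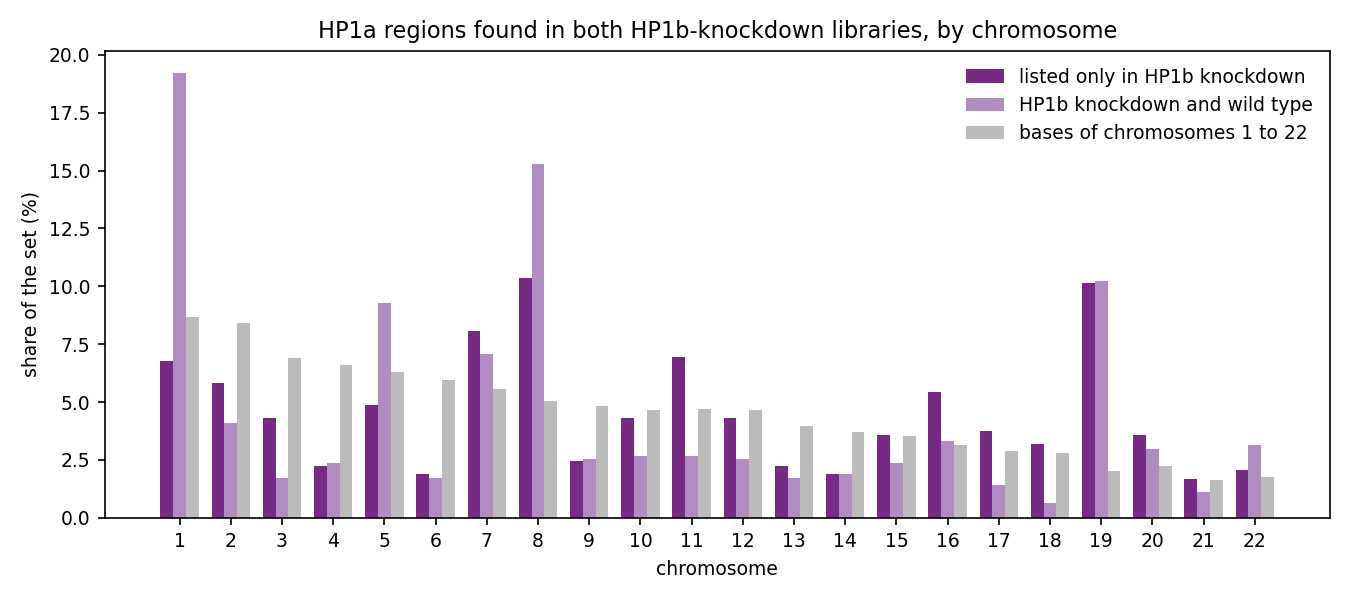
Share in percent (y axis) of HP1a regions listed only in HP1b knockdown, of HP1a regions of HP1b knockdown that meet a wild-type peak, and of bases, on each chromosome from 1 to 22 (x axis). Chromosomes 8 (10.3%) and 19 (10.2%) hold the most of the first set, with 15.3 and 10.2% of the second. Chromosome 1 holds 6.77% of the first set and 19.2% of the second.

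Within chromosomes the regions formed clusters. Windows of 2 Mb with at least 1 region numbered 291, and 22 of them held 5 or more, with 139 regions between them. The fullest was 142 to 144 Mb on chromosome 8 with 13 regions, around the adhesion receptor gene ADGRB1 and TSNARE1, followed by 138 to 140 Mb on chromosome 8 with 9, in and near COL22A1 and FAM135B. Those windows also held 20 and 43 of the other HP1a regions of the HP1b knockdown. By contrast 78 to 80 Mb on chromosome 18, with CTDP1, a gene for a phosphatase of RNA polymerase, held 8 regions and 88 to 90 Mb on chromosome 15, with NTRK3 and PLIN1, held 6, and neither window held any of the others. NTRK3 begins before its window, and the whole gene held 1 of the others.

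HP1b differed between the clusters. In the fullest window on chromosome 8 HP1b covered a mean of 49.1 and 68.3% of region bases in the HP1a knockdown, against 38.5 and 28.5% in wild type. At 70 to 72 Mb on chromosome 7, with 8 regions, the groups overlapped. There the share was 50.2 and 75.6% in the HP1a knockdown, against 53.6 and 37.7% in wild type. In the chromosome 15 window the mean share of region bases under HP1b was 57.9 and 59.1% in the HP1a knockdown, against 8.78 and 18.0% in wild type, and the groups were far apart. In the chromosome 18 window it was 25.6 and 29.9% in the HP1a knockdown, against 16.7 and 29.3% in wild type, and there the second wild-type library was close to the HP1a-knockdown libraries. At 70 to 72 Mb on chromosome 11, which holds SHANK2 and 7 regions, it was 34.9 and 72.8% in the HP1a knockdown, against 6.08 and 14.3% in wild type.

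By annotation, 193 regions lay in a protein-coding gene (36.3%), 87 in another kind of gene only (16.4%) and 252 in no gene (47.4%), while protein-coding genes span 42.1% of bases. The genes were long: the 140 protein-coding genes with a region, of 19126, had a median length of 162.4 kb, against 24.5 kb for all. A long gene has more bases in which a region can fall. There were 12 genes with 3 or more regions.

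RBFOX1, a splicing regulator of neurons, held 8 regions, ASIC2, an acid-sensing cation channel, held 6, and CALN1, a calcium-binding protein gene, EPHB1, a receptor for ephrin-B ligands, and SHANK2 held 5 each. ADAMTS2, which encodes a procollagen peptidase, COL22A1, a collagen chain gene, and DLGAP2, a postsynaptic scaffold gene, held 3 each. EPHB1 and DLGAP2 held none of the other HP1a regions of the HP1b knockdown, whereas COL22A1 held 21 and ADAMTS2 held 13.

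In these genes HP1b peaks covered more of the gene body in both HP1a-knockdown libraries than in both wild-type libraries. SHANK2 was covered at 31.7 and 50.4% in the HP1a knockdown, against 11.0 and 12.7% in wild type. EPHB1 was covered at 22.3 and 29.8% in the HP1a knockdown, against 8.30 and 7.98% in wild type. ADAMTS2 was covered at 68.8 and 78.6% in the HP1a knockdown, against 29.0 and 33.2% in wild type. The groups did not overlap in any of the 8 genes. RBFOX1, the gene with the most regions, was covered at 31.2 and 32.5% in the HP1a knockdown, against 19.7 and 18.9% in wild type.

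Over the 140 genes with a region, HP1b coverage of the gene body was higher in both HP1a-knockdown libraries than in both wild-type libraries at 67 (47.9%) and lower at 18 (12.9%). Over all 19126 protein-coding genes these shares were 6.37 and 25.9%. Among genes longer than 300 kb, a length chosen after the values were seen, they were 68.8 and 16.7% in the 48 genes with a region, against 18 and 44.8% in all 739. The 48 are part of the 739, and the difference between these shares was not tested.

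C2H2 zinc finger genes, a family known to be bound by HP1 proteins, held a region in a larger share than all protein-coding genes, a difference that was not tested. Of 543 C2H2 zinc finger genes, 10 held a region (1.84%) and 27 held one of the other HP1a regions of the HP1b knockdown; the share was 0.732% over all protein-coding genes. They include ZNF44, ZNF626, ZNF594 and ZNF568. The ZNF626 region only reaches the edge of that gene, of which HP1a peaks covered 0 and 0.0240% in the HP1b knockdown. Most of the 10 genes lie on chromosome 19, which held 10.2% of the regions with 2.04% of bases. HP1b coverage of the gene body was higher in both HP1a-knockdown libraries than in both wild-type libraries at 5 of the 10, lower at 1 and overlapping at 4. ZNF568 was covered at 27.5 and 25.7% in the HP1a knockdown, against 22.2 and 21.3% in wild type. ZNF44, the lower one, was covered at 29.6 and 30.6% in the HP1a knockdown, against 49.99 and 44.4% in wild type.

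The other lists are set beside the same share of 0.732%, and a short list may hold none at that share. None of 53 clustered protocadherin genes, 391 olfactory receptor genes, 55 keratin genes, 23 cadherin genes, 17 synaptotagmin genes or 382 solute carrier genes held a region. No region lay in any of 38 epithelial and basal genes, 34 mesenchymal genes or 49 genes of the TGF-beta and BMP pathway, nor in CBX5, CBX1 or CBX3, the HP1 genes themselves. Among channels, the regions lay in KCNG3 and KCNK13 of 94 potassium channel genes, CACNA2D3 of 25 calcium channel genes, and TRPM2 and TRPM1 of 20 TRP channel genes. The collagen list gave COL22A1 of 42 genes, the ADAM and ADAMTS list gave ADAMTS2 and ADAMTS10 of 44, and the cilium list gave CFAP53 of 94. A list of 8 long genes, RBFOX, CSMD, MYT1L and PTPRN2, gave CSMD1, RBFOX1, CSMD2 and PTPRN2, and it was put together with earlier results of these data known.

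No miRNA hairpin lay in a region. One region held transfer RNA genes, TRS-AGA2-1 and TRR-ACG1-1 (chr6:26327540-26328266), with an HP1a fold of 4.39 and 3.66 in the HP1b-knockdown libraries and no HP1b peak in any library. None of the 635 other HP1a regions of the HP1b knockdown held a transfer RNA gene, but a single region cannot tell the sets apart.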

How the data were processed

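The data were broad peak lists of 8 ChIP-seq libraries. MACS3, SAMtools, Bowtie2 and Trimmomatic and the build hg38 stand in the submitters' processing notes, and no source used here states versions, settings or an input. Per the labels, chromatin was cross-linked with 1.2% formaldehyde for 12 minutes and read as 76 bp pairs. The deposited lists give positions, fold (a ratio), −log10 p-value and −log10 q-value for each peak, with a score that is the last of these multiplied by 10. They hold no read counts, so depth and counting error are unknown and no interval is given.

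Regions were built with Python 3.11.15, pandas 2.3.3 and numpy 2.4.6. Bases were counted over merged peaks of chromosomes 1 to 22. Exact permutation tests used scipy 1.17.1. HP1b coverage of a region with 5 kb on each side was multiplied by mean total coverage over the library's total. It was fitted with limma 3.58.1 in R 4.3.3, with a variance trend and Benjamini-Hochberg adjustment over all windows. Windows needed an HP1b peak in at least 2 of 4 libraries. The fit was first run on simulated data in which all libraries had the same spread, so that run did not cover groups of unequal spread. Genes, promoters and their sequences are RefSeq's on GRCh38.p14, and a gene list's symbols were matched to it. Promoters on chromosome 8 were not analysed here, and some genes, such as PIP4P1, have no promoter window.

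The members and gene lists were chosen with earlier results of these data known. Named regions are the 12 strongest in HP1a, the 6 widest, the 3 highest and 3 lowest in moderated t, the strongest in HP1b and the 5 on each side of the border; named genes hold these regions, hold the most regions or belong to a list. Alternatives changed peak strength, list length, overlap, window, scale, filter, block and libraries. Values are mean ± SD. The result of 1 gene list is not reported here.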

Additional observations from a re-analysis of the deposited data

How the results depend on the processing

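The number of regions, 532, was 3 with a −log10 q of at least 2 in every list, 926 with the same number of peaks per HP1a library and 225 when each replicate had to cover at least 50% of a region. With a single HP1b-knockdown library the regions are the peaks of that library, and leaving out 1 HP1a library at a time gave 692 to 13242. It was 394 with a wild-type peak barred within 1 kb and 552 with chromosome X. The limma count of changed HP1b windows, 0 by the 5 kb fit, was 215 with 25 kb on each side and 88 with a replicate block, and 0 under all other alternatives, leave-one-out fits included, in which the lone library is assumed to vary like the other group. Deviations of same-numbered libraries correlated at 0.0701 over 22093 windows, and the labels do not state that numbers pair libraries. Under the replicate block the differences in regions met and in bases stayed at 23.03 and 25.1 points, with an exact p of 0.5, the smallest for 2 pairs. The difference in regions met ran between 14.4 and 29.7 points over the alternatives, that in bases between 11.3 and 31.9 points, and the gap to the other HP1a regions of the HP1b knockdown between −29.4 and −19.2 points. Leaving out 1 HP1b library at a time gave 16.8 to 29.2, 18.3 to 31.9 and −29.4 to −25.0 points. No direction was reversed in any alternative run. With 2 libraries a group no exact test could pass 0.05, and weak peaks make up most of each list.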
